A study of Mus musculus with 6 samples.

Results

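The FoxO transcription factors and the enzymes of antioxidant defence were described in haematopoietic stem cells (HSCs) with and without Chrm1, the gene of a muscarinic acetylcholine receptor. The set was named gene by gene: 4 FoxO genes, the Nrf factors with their inhibitor Keap1, and the enzymes that remove superoxide and peroxides or repair oxidised thiols. Of the 40 genes, 37 had a row of their own among the 22180 genes of the array. Prdx1, Prdx5 and Prdx6 were not analysed here.

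HSCs were sorted from the bone marrow of unchallenged C57Bl/6 mice as cells without lineage markers, with Sca1 and Kit at the surface and without Flt3. Wild type mice gave 3 arrays and mice of the genotype Chrm1-/- gave 3 arrays, both of the same labelled strain. Each array was an Affymetrix mouse gene ST chip hybridised with amplified RNA. The deposited values are log2 signals, on which a difference of 1 is 2-fold. Nothing in the labels ties a replicate to its own mouse, and the p-values therefore cover the variation among these arrays, part of which may be technical. The series concerns how the receptor in the brain, by way of glucocorticoids, prepares HSCs to leave the marrow, and the design compares the genotypes at rest.

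FoxO factors enter the nucleus when signalling through phosphoinositide 3-kinase and Akt is low, and there they switch on genes for cell cycle arrest and for antioxidant enzymes such as manganese superoxide dismutase and catalase. Nrf2, the product of Nfe2l2, is held by Keap1 for degradation and is released by oxidants, after which it pairs with small Maf proteins on antioxidant response elements. HSCs are known to depend on FoxO factors, since their loss raises reactive oxygen and drives the cells out of rest.

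The signal of Chrm1 itself was 7.45, 7.44 and 7.67 on the wild type arrays and 8.16, 7.52 and 7.58 on the Chrm1-/- arrays. Neither the probes' position in the gene nor the extent of the deletion is stated in the sources used here, and the values do not serve as a check of the labels. The 11 HSC markers on the array, such as Kit and Procr, all had signals above the filter for testing. Averaged over the list, they lay between 8.97 and 9.05 on the wild type arrays and between 8.88 and 9.08 on the Chrm1-/- arrays. The HSC markers had a higher mean in Chrm1-/- for 4, a lower one for 6 and an equal one for 1, with a median difference of -0.02. Procr was the HSC marker whose groups lay apart, lower in Chrm1-/- by -0.25 ± 0.10 (SE). Its unadjusted p was 0.0393 and its adjusted p 0.996 in limma. Of the granulocyte and monocyte markers 8 of 16 passed that filter and all 8 had a lower mean in Chrm1-/-. Below the filter Ltf, Camp, Lcn2, Ly6g and Csf1r had higher means in Chrm1-/-, and Ngp, S100a8 and S100a9 had lower ones. The mean of all 16 ran from 7.23 to 7.47 in wild type and from 7.05 to 7.29 in Chrm1-/-. The macrophage gene Cd68 of that list read 8.79, 9.0 and 10.25 in wild type and 8.47, 8.16 and 8.19 in Chrm1-/-. Its difference was -1.07 ± 0.39 (SE), with wild type replicate 3 the highest array. The 6 tested megakaryocyte and platelet markers split into 3 higher and 3 lower, with a median difference of -0.02. Among them F2rl2 lay higher on every Chrm1-/- array, by 1.13 ± 0.36 (SE), and Treml1 lower, by -0.35 ± 0.18 (SE). Pf4 differed by -0.88 ± 0.37 (SE), with overlapping groups. Itga2b, Gp9 and Vwf differed by -0.04, 0.003 and 0.003. No gene of this list reached an adjusted p under 0.05 in limma. Of the erythroid markers 9 of the 10 on the array passed, with 6 higher and 3 lower. The part of these markers in the values that follow was not tested.

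No FoxO or antioxidant gene passed the test for a difference between the genotypes. Genes were tested where the mean signal over the 6 arrays reached the median of all genes, 6.77, which 32 of the 37 did. In limma with Benjamini-Hochberg adjustment over the 11094 genes tested, 0 of these 32 passed an adjusted p of 0.05, and neither did any other gene, a background of 0%. At an unadjusted p under 0.05 there were also 0 of 32, where 332 of all genes tested, 2.99%, reached it. The wild type and Chrm1-/- arrays overlapped for every one of the 32, while they lay apart for 5.79% of all genes tested. A change of at least 1.5-fold between the group means was seen in 0 of 32 and in 4.31% of all genes tested. In Chrm1-/- the mean was higher for 12 and lower for 20, where 49.2% of all genes tested had a lower mean. The median difference, Chrm1-/- minus wild type, was -0.03 for the 32 and 0 for all genes tested. In sorted cells profiled in bulk, fewer cells of a type and less RNA per cell cannot be told apart.

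**Figure D1:**
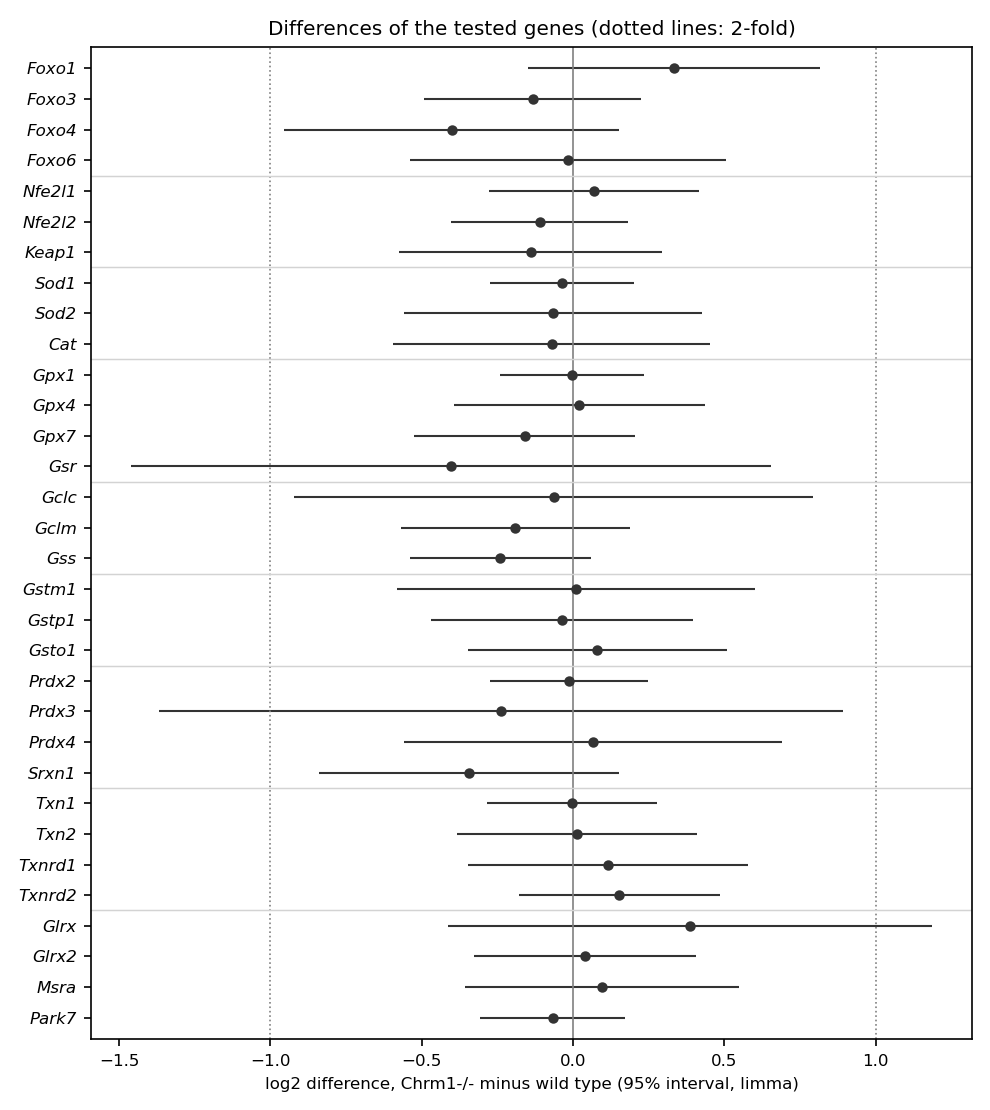
Difference of each tested gene, Chrm1-/- minus wild type, on the log2 scale, with points for the difference of group means (3 arrays each) and bars for limma's 95% interval; grey lines separate roles. Every interval includes 0, and those of Gsr, Prdx3 and Glrx reach beyond 2-fold in 1 direction.

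For 22 of the 32 genes the 95% interval lay inside 1.5-fold in both directions, against 53.3% of all genes tested. For 29 of the 32 it lay inside 2-fold, against 83.7%. Sod1, Gpx1, Prdx2, Park7 and Txn1 were bounded most closely. For Gpx1 the interval ran from 0.846-fold to 1.18-fold, and for Sod1 from 0.827-fold to 1.15-fold. Gsr, Prdx3 and Glrx were the 3 whose interval went past 2-fold, so that a change of that size was within the error for these. The interval ran from 0.364-fold to 1.57-fold for Gsr, from 0.388-fold to 1.86-fold for Prdx3 and from 0.751-fold to 2.28-fold for Glrx.

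Short stretches of promoter show where the DNA letters bound by both kinds of factor lie in this gene set. Windows from 250 bases before to 50 bases after the transcription start were taken from RefSeq (GRCm38.p6), which held 44 windows for 30 of the 37 genes. The antioxidant response element core was searched as TGACNNNGC on both strands and the FoxO element as GTAAACA on both strands; these letters do not overlap each other. The antioxidant core was in 5 of the 44 windows, 11.4%, each of a different gene, and in 12.4% of all 32851 windows. The FoxO letters were in 2 of the 44, those of Glrx2 and Slc7a11, or 4.55%, and in 3.65% of all windows. Both shares are near those of all windows. The matches before the start site are given 5′ to 3′ along the gene, with the matching letters in capitals. A match in Srxn1 lay after the start site and is not shown. A match is a description of letters and says nothing of binding in these cells.
Nfe2l2, minus strand, chr2:75704883-75704913: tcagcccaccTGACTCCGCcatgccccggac
Gclm, plus strand, chr3:122245411-122245443: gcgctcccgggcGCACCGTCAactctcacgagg
Txnrd1, plus strand, chr10:82859102-82859134: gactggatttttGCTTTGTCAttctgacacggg
Sod1, plus strand, chr16:90220694-90220726: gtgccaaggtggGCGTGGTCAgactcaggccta
Glrx2 (FoxO letters), plus strand, chr1:143739299-143739329: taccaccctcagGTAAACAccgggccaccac
Slc7a11 (FoxO letters), minus strand, chr3:50443827-50443857: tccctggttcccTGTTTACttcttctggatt

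The genes with the antioxidant core in a window varied in their differences, none of which passed the test. Nfe2l2, Gclm and Sod1 had lower means in Chrm1-/-, by -0.11, -0.19 and -0.04 on the log2 scale, and Txnrd1 had a higher one, by 0.12. Srxn1, with its match after the start, differed by -0.34. Their arrays overlapped between the genotypes in each case.

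The FoxO genes leaned in different directions. Foxo1 read 7.79, 8.08 and 7.35 on the wild type arrays and 8.18, 8.02 and 8.02 on the Chrm1-/- arrays. Wild type replicate 3 was the low array and wild type replicate 2 lay among the Chrm1-/- values. The difference was 0.33 ± 0.20 (SE), with an unadjusted p of 0.143 and an adjusted p of 0.996 in limma. It ran from 0.14 without wild type replicate 3 to 0.50 without wild type replicate 2, and in the latter fit the unadjusted p was 0.0355 in limma, with an adjusted p of 0.999. A further row of Foxo1, of lower signal, differed by 0.07.

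Foxo4 read 8.06, 7.54 and 7.63 in wild type and 6.95, 7.45 and 7.63 in Chrm1-/-. The highest array was a wild type one and the lowest a Chrm1-/- one, while wild type replicate 3 and Chrm1-/- replicate 3 gave the same value. The difference of -0.40 ± 0.23 (SE), unadjusted p = 0.128 in limma, was -0.20 without Chrm1-/- replicate 1. Foxo3, the FoxO factor most closely tied to HSC maintenance, read 7.65, 7.43 and 7.37 in wild type and 7.21, 7.58 and 7.26 in Chrm1-/-. Its groups overlapped, and its difference of -0.13 ± 0.15 (SE) had a 95% interval from -0.49 to 0.23. It was -0.05 without wild type replicate 1. Foxo6, a family member studied mainly in brain and liver, read 6.85, 7.12 and 7.28 in wild type and 6.68, 7.38 and 7.14 in Chrm1-/-, a difference of -0.02 ± 0.21 (SE).

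The genes of the Nrf2 switch had similar means in both genotypes. Nfe2l2 read 10.04, 10.35 and 10.09 in wild type and 10.04, 10.05 and 10.06 in Chrm1-/-. The 3 Chrm1-/- arrays had a spread of 0.01 (SD, n = 3), and the wild type spread of 0.17 (SD, n = 3) came with 1 higher array. The difference was -0.11 ± 0.12 (SE), and -0.02 without wild type replicate 2. Nfe2l1, whose product Nrf1 sits in the endoplasmic reticulum and induces proteasome genes, read 8.30, 8.72 and 8.44 in wild type and 8.50, 8.50 and 8.67 in Chrm1-/-. Its difference was 0.07 ± 0.14 (SE). Keap1 read 7.36, 7.26 and 7.44 in wild type and 6.86, 7.47 and 7.31 in Chrm1-/-, so 1 Chrm1-/- array lay below all others. Keap1 differed by -0.14 ± 0.18 (SE) in this row and by 0.17 in its other row, so the rows of the gene disagreed in sign.

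Superoxide dismutases and catalase had similar means in both genotypes. Sod1, the copper-zinc enzyme of the cytosol, read 12.73, 12.64 and 12.61 in wild type and 12.59, 12.64 and 12.64 in Chrm1-/-. All 6 arrays fell within a narrow band, and the difference was -0.04 ± 0.10 (SE). Sod2, the manganese enzyme of mitochondria, read 9.14, 9.32 and 9.11 in wild type and 8.83, 9.0 and 9.54 in Chrm1-/-. The Chrm1-/- arrays held both the lowest and the highest value, with a difference of -0.07 ± 0.20 (SE). Cat, which encodes the catalase that splits hydrogen peroxide, behaved likewise. It read between 9.95 and 10.05 on the 3 wild type arrays and 9.98, 9.49 and 10.32 on the Chrm1-/- arrays. Its SD was 0.05 (n = 3) in wild type and 0.42 (n = 3) in Chrm1-/-, and the difference was -0.07 ± 0.22 (SE). Sod3, the extracellular enzyme, read 6.72, 6.72 and 6.67 in wild type and 6.51, 6.71 and 6.75 in Chrm1-/-, below the filter for testing.

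**Figure D2:**
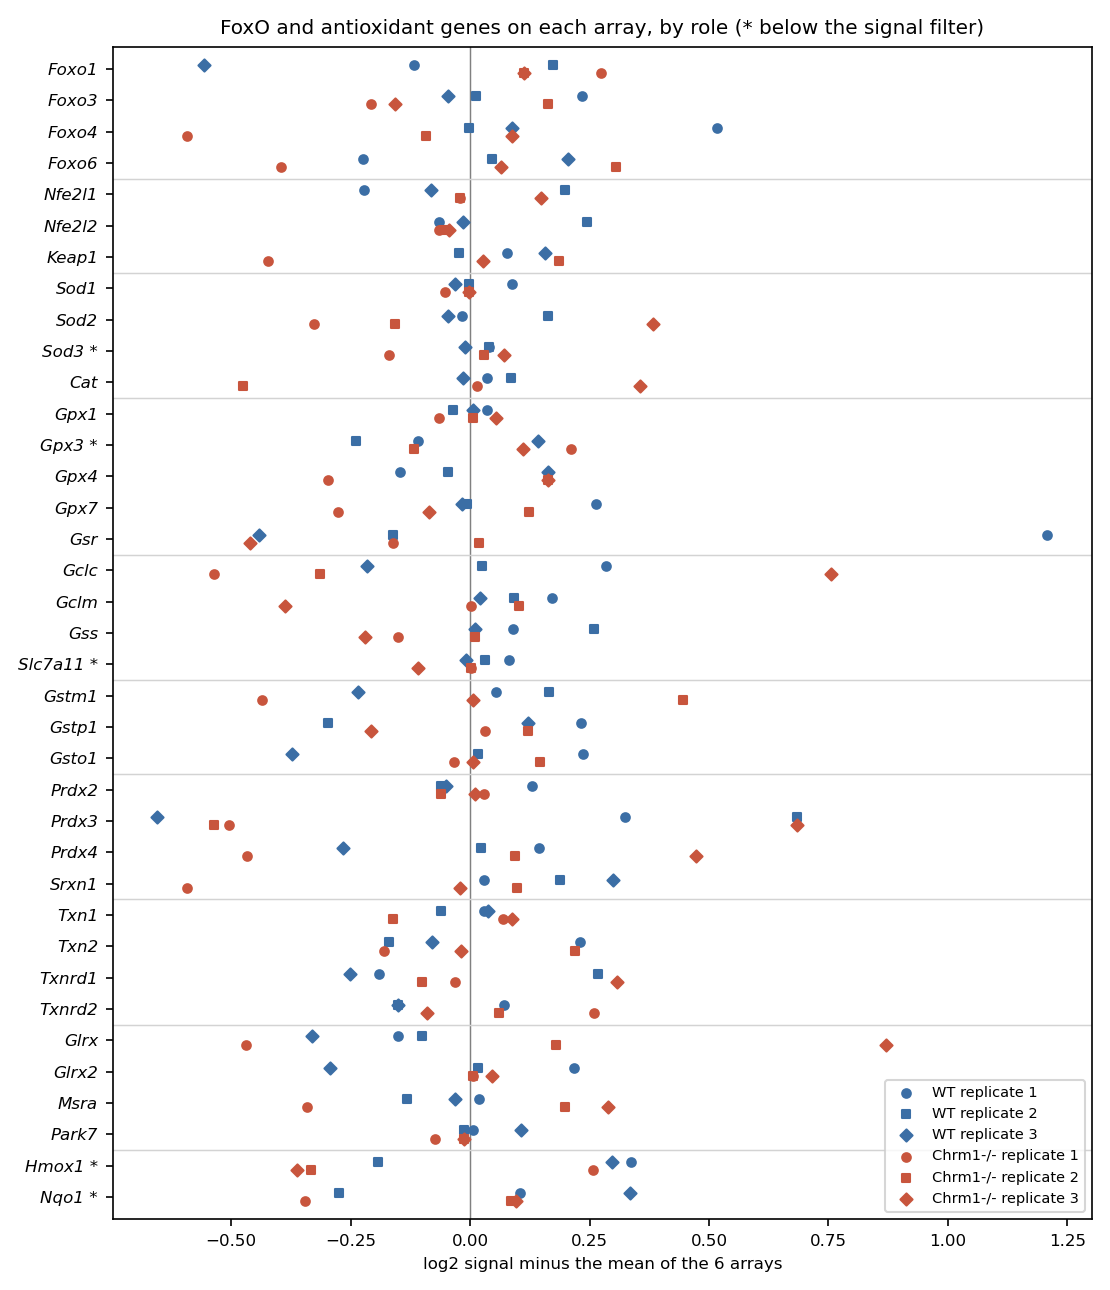
Log2 signal of each of the 37 genes on each array, less the gene's own mean over the 6 arrays, with blue for wild type and red for Chrm1-/- and 1 marker shape per replicate number; an asterisk marks the 5 genes below the signal filter, and grey lines separate roles. The colours overlap in every tested gene, and wild type replicate 1 stands apart for Gsr, at 9.42.

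Glutathione peroxidases use glutathione to reduce peroxides, and glutathione reductase, from Gsr, restores it. Gpx1, the main cytosolic peroxidase, had a wild type signal of 12.10 ± 0.04 (SD, n = 3). Its signal in Chrm1-/- was 12.09 ± 0.06 (SD, n = 3). Gpx4, which protects membrane lipids from peroxidation, differed by 0.02 ± 0.17 (SE), and Gpx7, a peroxidase of the endoplasmic reticulum, by -0.16 ± 0.15 (SE), or -0.06 without Chrm1-/- replicate 1. Gpx3, the secreted plasma enzyme, was below the filter at 5.92 in wild type and 6.06 in Chrm1-/-. Gsr read 9.42, 8.05 and 7.77 in wild type and 8.05, 8.23 and 7.75 in Chrm1-/-. A single array, wild type replicate 1, lay far above the other 5, and the rest overlapped. The difference of -0.40 ± 0.43 (SE), the most negative of the set, became 0.10 without that array.

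The genes for making glutathione all had lower means in Chrm1-/-, none past the test. Gss, the glutathione synthetase of the second step, read 7.89, 8.06 and 7.81 in wild type and 7.65, 7.81 and 7.58 in Chrm1-/-. The groups met at 7.81, the lowest wild type and the highest Chrm1-/- value, so they came closer to lying apart than for most of the genes. The difference of -0.24 ± 0.12 (SE) had the smallest unadjusted p of the 32, 0.0969 in limma, and an adjusted p of 0.996; it kept its sign on leaving out any array, from -0.31 to -0.17. Gclc, the catalytic subunit of the rate-limiting ligase, read 9.13, 8.87 and 8.63 in wild type and 8.31, 8.53 and 9.60 in Chrm1-/-. Chrm1-/- replicate 3 was the highest of all and the other Chrm1-/- arrays the lowest, and the difference was -0.06 ± 0.35 (SE). Without Chrm1-/- replicate 3 it was -0.46, and without Chrm1-/- replicate 1 it was 0.19. Gclm, the modifier subunit of the same ligase, differed by -0.19 ± 0.16 (SE), and by -0.04 without Chrm1-/- replicate 3. Slc7a11, the cystine importer that feeds the pathway, was below the filter in both of its rows, with differences of -0.07 in each.

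The glutathione transferases, which attach glutathione to electrophiles, differed by 0.08 or less in either direction. Gstm1 differed by 0.01 ± 0.24 (SE), Gstp1 by -0.04 ± 0.18 (SE) and Gsto1, an omega-class enzyme, by 0.08 ± 0.18 (SE). Gstp1 has a near-identical copy, Gstp2, so its signal may hold RNA of both. In the RefSeq table Gstp1 also lies within 10 Mb of Chrm1 on the same chromosome, where flanking DNA can differ between a knockout and its control.

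Peroxiredoxins reduce hydrogen peroxide through a reactive cysteine, which sulfiredoxin, from Srxn1, rescues when it is over-oxidised. Prdx2, abundant in blood cells, was steady, with a wild type signal of 10.04 ± 0.11 (SD, n = 3) and a Chrm1-/- signal of 10.02 ± 0.05 (SD, n = 3). Prdx3, the mitochondrial form, read 10.11, 10.47 and 9.13 in wild type and 9.28, 9.25 and 10.47 in Chrm1-/-. The 6 arrays thus fell into a high and a low set of 3, each holding both genotypes, and the difference was -0.24 ± 0.47 (SE). Prdx4, the form of the endoplasmic reticulum, differed by 0.07 ± 0.26 (SE). Srxn1 read 8.10, 8.26 and 8.37 in wild type and 7.48, 8.17 and 8.05 in Chrm1-/-. Chrm1-/- replicate 1 was the low array and Chrm1-/- replicate 2 lay within the wild type range, giving -0.34 ± 0.20 (SE) with all arrays and -0.13 without Chrm1-/- replicate 1.

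The thioredoxin system, which passes electrons from NADPH to peroxiredoxins, showed no difference past the test either. Txn1, the cytosolic thioredoxin, had a mean of 10.65 in both genotypes, with SDs of 0.06 (n = 3) and 0.14 (n = 3). Its mitochondrial counterpart Txn2 differed by 0.01 ± 0.16 (SE), and the reductases Txnrd1 and Txnrd2 by 0.12 ± 0.19 (SE) and 0.15 ± 0.14 (SE). For all 4 genes the 95% interval lay inside 1.5-fold.

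Among the remaining repair enzymes Glrx stood out by its spread. Glrx, the cytosolic glutaredoxin that removes glutathione from proteins, read 7.70, 7.75 and 7.52 in wild type and 7.38, 8.03 and 8.72 in Chrm1-/-. The Chrm1-/- arrays lay on both sides of the wild type ones, with an SD of 0.67 (n = 3) against 0.12 (n = 3). The difference of 0.39 ± 0.33 (SE) ran from 0.05 without Chrm1-/- replicate 3 to 0.72 without Chrm1-/- replicate 1, and the latter had an unadjusted p of 0.0289 and an adjusted p of 0.987 in limma. Glrx2, the mitochondrial glutaredoxin, differed by 0.04 ± 0.15 (SE), Msra, which reduces methionine sulfoxide, by 0.10 ± 0.19 (SE), and Park7, the redox-sensitive protein DJ-1, by -0.07 ± 0.10 (SE). The classical Nrf2 targets Hmox1 and Nqo1 were below the filter. Hmox1, which degrades heme, read 7.04, 6.51 and 7.0 in wild type and 6.96, 6.37 and 6.34 in Chrm1-/-, with overlapping groups and a difference of -0.29. Nqo1, a quinone reductase, differed by -0.11. Tested with no filter, these had unadjusted p values of 0.242 and 0.602 in limma.

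The spread between arrays differed widely among the genes. The median SD within a genotype was 0.23 for the 32 genes and 0.22 for all genes tested. Sod1, Gpx1 and Park7 lay at percentiles 2.5, 2.6 and 2.9 of that spread among all genes tested. At the other end Prdx3 and Gsr lay at percentiles 95.7 and 94.6, followed by Gclc at 89.9 and Glrx at 87.7. Genes of high signal vary less on this array, with a median SD of 0.15 at a signal of 10 or more. It was 0.28 between 8 and 10 and 0.20 under 8, so the spread did not fall steadily with signal. Set only against the 500 tested genes of nearest signal, Sod1 and Gpx1 lay at percentiles 16.2 and 16.8. Park7 lay at 2.8 and Prdx3 at 95.6 on that scale, so these kept their place.

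Where the genes varied, they often did so on the same arrays. Chrm1-/- replicate 1 held the lowest of the 6 values for 17 of the 32 genes, 53.1%, while it held the lowest for 19.1% of all genes tested. The 17 came from every role with a tested gene: Foxo3, Foxo4, Foxo6, Keap1, Sod1, Sod2, Gpx1, Gpx4, Gpx7, Gclc, Gstm1, Prdx4, Srxn1, Txn2, Glrx, Msra and Park7. The highest value fell on wild type replicate 1 for 11 genes, 34.4% against 15.4% of all genes tested, and on Chrm1-/- replicate 3 for 9, 28.1% against 17.4%. With each gene centred on its 6 arrays, the 32 genes averaged 0.11, 0.04 and -0.09 in wild type and -0.19, 0.02 and 0.10 in Chrm1-/-. The Chrm1-/- arrays thus held both the lowest of these means and the second highest. Without Chrm1-/- replicate 1 the split of 12 higher and 20 lower became 17 higher and 15 lower, with a median of 0.03. What sets these arrays apart was not tested. Centred in the same way, the 7 marker lists averaged from -0.10, for HSC markers, to 0.76, for the 2 mast cell and basophil markers, on Chrm1-/- replicate 1. Stroma and endothelium markers averaged 0.20 there, and erythroid markers 0.14 there and 0.19 on wild type replicate 1. Mast cell and basophil markers averaged 0.60 on wild type replicate 1 and -1.08 on Chrm1-/- replicate 3.

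**Figure D3:**
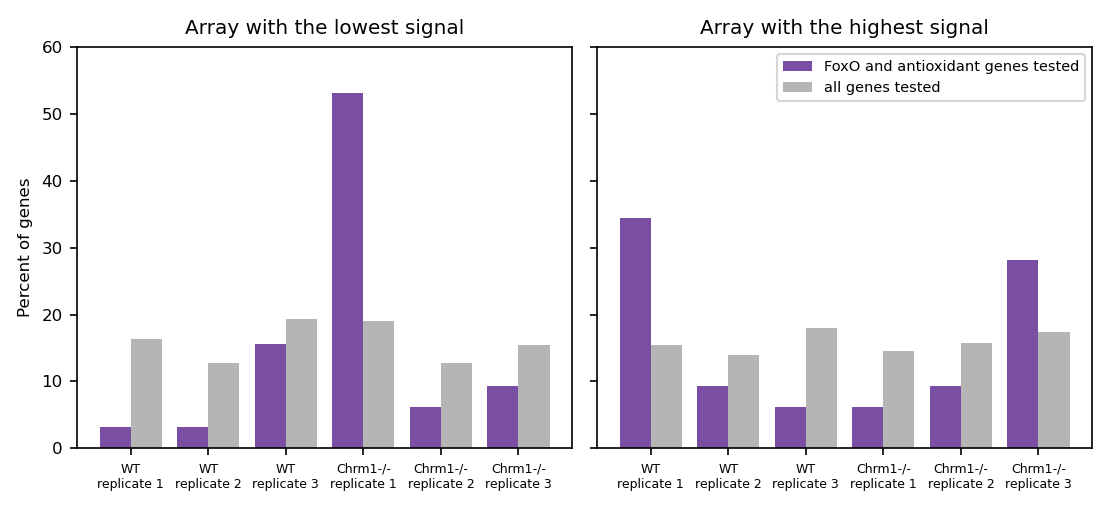
Percent of genes whose lowest (left) or highest (right) of 6 signals fell on each array, for the 32 tested FoxO and antioxidant genes (purple) and all 11094 genes tested (grey). Chrm1-/- replicate 1 held the lowest value for 53.1% of the FoxO and antioxidant genes and 19.1% of all genes.

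Of 139 tested genes around the pathway, 5 had an unadjusted p under 0.05, 3.6% against the 2.99% of all genes tested, and 0 passed the adjusted threshold in limma. The groups lay apart for 9 of the 139, 6.47% against 5.79%. Both shares are near the background, so the genes named from these lists are given as descriptions. Of 27 tested regulators of FoxO, 16 had higher and 11 lower means, with a median difference of 0.04. Inpp5d, the lipid phosphatase SHIP1 that limits phosphoinositide signalling in blood cells, read 9.63, 9.61 and 9.61 in wild type and 9.92, 10.09 and 10.04 in Chrm1-/-. The groups lay apart, with a difference of 0.40 ± 0.10 (SE), an unadjusted p of 0.00706 and an adjusted p of 0.996 in limma. It was between 0.36 and 0.45 on leaving out any array. Ywhab, a 14-3-3 protein of the family that retains FoxO in the cytoplasm, differed by 0.20 ± 0.14 (SE), and the acetyltransferase gene Crebbp by 0.20 ± 0.14 (SE).

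Of the further genes that FoxO factors are known to induce, 18 of 24 tested were higher in Chrm1-/-, where 5545 of all 11094 genes tested were higher. Their median difference was 0.11 against 0 for all genes tested. Sod2 and Cat, also induced by FoxO factors, were counted with the set above and not in this list, and both had lower means, by -0.07 each. With no filter on dim genes the list split into 20 higher and 11 lower, and its median was 0.08. Without wild type replicate 3 the filtered count was 15 of 24 and the median 0.06. With each gene centred on its 6 arrays, the list averaged -0.18 on that array, its lowest. Cdkn1b, a cyclin-dependent kinase inhibitor, was the 1 gene of the list with an unadjusted p under 0.05 in limma, 0.0204, at 0.62 ± 0.20 (SE). Its unadjusted p stayed under 0.05 in 3 of the 6 fits that left out 1 array, and the highest was 0.0651 in limma, without wild type replicate 3. Its relative Cdkn1a differed by -0.35 ± 0.25 (SE) and the insulin receptor gene Insr by 0.23 ± 0.18 (SE).

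Partners and regulators of Nrf2 numbered 13 tested, 7 higher and 6 lower, and 0 had an unadjusted p under 0.05. Those of smallest p were Bach2, a repressor that binds Maf sites, at -0.19 ± 0.16 (SE), and the small Maf genes Mafk at 0.20 ± 0.17 (SE) and Mafg at 0.12 ± 0.13 (SE). Of 15 further Nrf2 targets 10 were higher and 5 lower. Ephx1, the microsomal epoxide hydrolase, read 6.94, 6.61 and 6.68 in wild type and 7.31, 7.20 and 7.17 in Chrm1-/-. The groups lay apart by 0.48 ± 0.13 (SE), with an unadjusted p of 0.00854 and an adjusted p of 0.996 in limma. Blvra, a biliverdin reductase, differed by 0.22 ± 0.14 (SE) and the carbonyl reductase Cbr1 by 0.38 ± 0.26 (SE).

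Further glutathione, thioredoxin and methionine sulfoxide enzymes split into 15 higher and 14 lower, with a median difference of 0.01. Nqo2, a quinone reductase related to Nqo1, read 8.10, 8.11 and 8.06 in wild type and 7.81, 7.72 and 7.44 in Chrm1-/-. The Chrm1-/- arrays all lay lower, by -0.43 ± 0.13 (SE), with an unadjusted p of 0.0147 and an adjusted p of 0.996 in limma. Gstk1, a mitochondrial and peroxisomal transferase, differed by 0.27 ± 0.14 (SE) and Oxr1 by 0.27 ± 0.15 (SE). Inpp5d, Ephx1 and Nqo2 had an unadjusted p under 0.05 in limma in all 6 fits that left out 1 array. They had been picked for their p on these same arrays, so its persistence is no separate evidence of a difference. None of them passed the adjusted threshold with all arrays.

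The factors that make selenoproteins are needed for the thioredoxin reductases and some of the glutathione peroxidases. These factors were listed together with other selenoproteins. Of 13 tested 5 were higher, 7 lower and 1 equal. Selenos, a selenoprotein that helps clear misfolded proteins from the endoplasmic reticulum, read 10.46, 10.42 and 9.64 in wild type and 10.78, 10.86 and 11.40 in Chrm1-/-. The groups lay apart, the difference was 0.84 ± 0.28 (SE), and the unadjusted p of 0.0235 in limma was 0.0742 without Chrm1-/- replicate 3. Selenoh differed by -0.34 ± 0.15 (SE), and Sepsecs, the synthase of selenocysteine on its transfer RNA, by -0.72 ± 0.38 (SE), with 6.62 on Chrm1-/- replicate 3 against 7.57 or more on the other 5 arrays.

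Sources of reactive oxygen gave 5 higher and 3 lower of 8 tested, 0 with an unadjusted p under 0.05 in limma. Cybb, the membrane subunit of the phagocyte oxidase, read 6.62, 7.04 and 6.82 in wild type and 9.04, 6.74 and 6.74 in Chrm1-/-. A single array, Chrm1-/- replicate 1, held the high value. The small GTPase gene Rac2 differed by 0.20 ± 0.17 (SE) and the oxidase subunit gene Ncf4 by -0.28 ± 0.26 (SE). Of 10 tested regulators of the redox state of HSCs, 4 were higher and 6 lower. The kinase gene Stk11 differed by -0.34 ± 0.16 (SE), the repressor Gfi1 by 0.16 ± 0.16 (SE), and Map3k5, a kinase that thioredoxin restrains, by 0.16 ± 0.20 (SE).

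**Figure D4:**
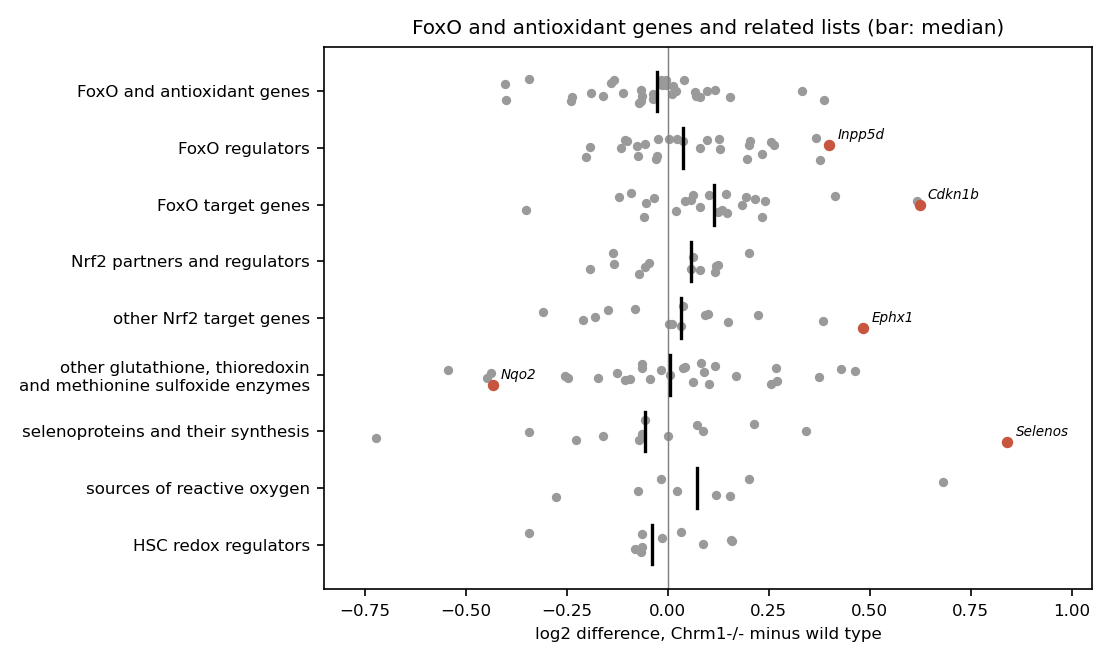
Log2 difference, Chrm1-/- minus wild type, of each tested FoxO and antioxidant gene and of the genes of 8 related lists, with black bars for the medians; red points with names are genes of unadjusted p under 0.05 in limma. The FoxO and antioxidant genes have no red point and a median of -0.03, and the FoxO target list has the highest median, 0.11.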

How the data were processed

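The design text states that the authors ran all 6 arrays (3 per genotype) through Affymetrix analysis software. Version, summarization and normalization are not stated in the sources used here. The deposited numbers, 3.02 to 13.67 with array medians of 6.49 to 6.57, were read as log2 signals by their range. Precision is limited by the number of arrays. Rows with 1 gene symbol in the platform annotation were kept (23521 of 41345; 1814 had several, 16010 none), and the row of highest mean stood for a gene. The contrast Chrm1-/- minus wild type was fitted by limma 3.58.1 (lmFit, eBayes; R 4.3.3) to all genes at or above the median signal, two-sided, with Benjamini-Hochberg adjustment. SE is limma's moderated error. The fit was checked on simulated data for the recovery of known differences, and its power is not reported here.

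The genes, the related lists and the tests were chosen with earlier results of these data known. Named were the FoxO, Nrf, dismutase and catalase genes, the 6 largest differences and the 3 smallest p of each list; Gss, Gclc and Prdx3 were singled out after their values were seen. Alternatives covered the filter, normalization, row choice, moderation, array weights, a replicate block, thresholds and each array left out. Python 3.11.15 with pandas 2.3.3 and matplotlib 3.10.9 joined tables and drew plots.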

Additional observations from a re-analysis of the deposited data

How the results depend on the processing

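No setting brought any of the 32 tested FoxO and antioxidant genes past the adjusted threshold in limma, and 12 kept their sign in each of the 15 alternatives that tested them. The other 20 changed sign without 1 of the arrays, and 7 of these also under another setting. Over the 6 fits without 1 array, the log2 difference ran from -0.173 to 0.177 for Foxo6, -0.023 to 0.187 for Nfe2l1, -0.268 to 0.037 for Keap1, -0.275 to 0.08 for Sod2 and -0.265 to 0.15 for Cat. It ran from -0.032 to 0.028 for Gpx1, -0.057 to 0.173 for Gpx4, -0.725 to 0.1 for Gsr, -0.457 to 0.188 for Gclc and -0.21 to 0.23 for Gstm1. The range was -0.195 to 0.07 for Gstp1, -0.087 to 0.218 for Gsto1, -0.047 to 0.048 for Prdx2, -0.638 to 0.047 for Prdx3 and -0.153 to 0.317 for Prdx4. In the remaining genes it was -0.048 to 0.077 for Txn1, -0.093 to 0.132 for Txn2, -0.008 to 0.28 for Txnrd1, -0.097 to 0.158 for Glrx2 and -0.023 to 0.292 for Msra. Among genes that kept their sign, it was -0.248 to -0.05 for Foxo3, -0.17 to -0.015 for Nfe2l2, -0.062 to -0.002 for Sod1, -0.262 to -0.062 for Gpx7, -0.288 to -0.043 for Gclm, 0.062 to 0.237 for Txnrd2 and -0.09 to -0.03 for Park7. Array weights gave 0.047 for Foxo6, 0.01 for Gpx1, 0.049 for Gstp1 and -0.001 for Glrx2. Quantile normalization gave 0.019 for Gpx1, 0.011 for Prdx2 and 0.006 for Txn1, and the mean of all rows gave 0.017 for Keap1. The cause of these sign changes was not tested.

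Genes of the set with an unadjusted p under 0.05 numbered 0 to 1 without 1 array: Foxo1 without wild type replicate 2 and Glrx without Chrm1-/- replicate 1. The median difference of the set ran from -0.07 to 0.03 over those fits. Over all genes, the count past the adjusted threshold in limma ran from 0 to 1, with 1 without wild type replicate 1, 1 without Chrm1-/- replicate 3 and 1 without moderation, none of them in the set. Over the 6 fits without 1 array, the count at an unadjusted p under 0.05 ran from 337 to 521, the latter without wild type replicate 3. With all arrays it was 332 in the main fit, 253 without moderation and 444 with array weights. It was 567 with no filter on dim genes, 169 with the filter at the 75th percentile and 149 when 1.5-fold was also asked; fewer or more genes entered in the first 2 of these.

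The replicate numbers did not pair the arrays. Deviations from the group means correlated at -0.03, 0.04 and -0.02 between arrays of the same number, and 2 of 6 arrays correlated best with their own number. With the replicate block 0 genes passed the adjusted threshold in limma, 396 had an unadjusted p under 0.05 against 332 without it, and the set again had 0. Low signal limits what can be said of Sod3, Gpx3, Slc7a11, Hmox1 and Nqo1, which were below the filter.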
